A study of Mus musculus with 2 samples.

Results

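The Ly6 genes described here are 7 members of the LY6/uPAR family, *Ly6a*, *Ly6c1*, *Ly6c2*, *Ly6d*, *Ly6e*, *Ly6g* and *Ly6g5b*, among 27998 gene rows. They were chosen by symbol from the 16 rows whose symbol starts with Ly6, with the UMI counts of these same libraries in view, so their levels are a description. A UMI (unique molecular identifier) marks 1 captured transcript. The member with the fewest was *Ly6g5b*, with 141 UMIs over both libraries, and the rows just below it that were not chosen were *Ly6i* with 39 and *Ly6k* with 36. Of the 7 other rows, *Ly6g6d* had 1 UMI and the rest had none.

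The cells were CD45+ leukocytes isolated by flow cytometry from brains of C57Bl/6 mice at postnatal day 21 and run on the 10x Genomics single-cell 3′ assay. The WT library came from pooled galc+/+ littermates and the twi library from pooled galc-/- mice, the twitcher model of globoid cell leukodystrophy, which carries a germline loss of galactosylceramidase. Neither group was treated, and the files do not separate the animals of a pool. With only 1 library for each genotype the spread between replicates is unknown, no difference was tested, and the 95% intervals given below cover counting error only.

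LY6 proteins are small, mostly GPI-anchored cell surface proteins built on the three-finger fold that they share with the urokinase receptor. Immunologists know them as markers: *Ly6a* encodes Sca-1, found on stem cells and on activated lymphocytes and induced by interferons. *Ly6c1* and *Ly6c2* encode the Ly-6C antigen of inflammatory monocytes and of memory CD8+ T cells, *Ly6g* marks neutrophils, *Ly6d* marks early B lineage cells, and *Ly6e* is a broadly expressed interferon-inducible member.

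Of the members, 6 (all but *Ly6g5b*) lie in a 397 kb stretch of chromosome 15 (GRCm38, GENCODE annotation), chr15:74762056-75159126, in the order *Ly6d*, *Ly6e*, *Ly6a*, *Ly6c1*, *Ly6c2*, *Ly6g*. *Ly6c1* (chr15:75044018-75048830, minus strand) and *Ly6c2* (chr15:75108158-75111970, minus strand) are close copies. Their longest coding transcripts were identical at 802 of 822 aligned bases. Because a 3′ assay reads the ends of transcripts, the last 400 bases of each annotated transcript were compared over 50-base windows. Of these windows, 29.4% for *Ly6c1*, 35.2% for *Ly6c2* and 9.27% for *Ly6a* occurred unchanged in another gene, that is in one another, in *Ly6i* or in *I830127L07Rik*. Reads from such stretches cannot be placed by sequence, which leaves the counts of these 3 genes uncertain. The paper kept only reads that passed a mapping quality cutoff, so such reads may be missing from the counts. How many were affected was not tested. The share was 0.313% for *Ly6g*, and 0 of the windows of *Ly6e* (2031 windows), *Ly6d* (351) and *Ly6g5b* (385) were shared. *Ly6g5b* lies apart on chromosome 17 (chr17:35113948-35115428).

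The 250 bases before the start sites of *Ly6c1* and *Ly6c2* are shown because these neighbours are so alike in their transcripts and yet differed in their counts below. Sequences are from RefSeq (GRCm38.p6), 5′ to 3′ on the minus strand, chr15:75048838-75049087 and chr15:75111972-75112221. Capitals mark runs of at least 12 bases that occur unchanged in both, 47 bases in each.
*Ly6c1*: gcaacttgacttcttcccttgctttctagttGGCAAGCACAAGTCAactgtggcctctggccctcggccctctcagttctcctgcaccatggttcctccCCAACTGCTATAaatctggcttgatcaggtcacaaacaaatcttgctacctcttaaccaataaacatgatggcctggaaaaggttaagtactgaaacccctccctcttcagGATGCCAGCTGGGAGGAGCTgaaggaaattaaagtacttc
*Ly6c2*: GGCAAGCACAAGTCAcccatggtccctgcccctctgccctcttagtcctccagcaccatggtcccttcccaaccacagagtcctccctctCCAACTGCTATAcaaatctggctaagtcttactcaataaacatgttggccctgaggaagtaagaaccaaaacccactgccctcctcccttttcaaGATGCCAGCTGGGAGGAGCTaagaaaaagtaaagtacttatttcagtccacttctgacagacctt

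Over windows of 300 bases, which end 50 bases past the start site, the promoters of *Ly6c1* and *Ly6c2* were identical at 214 of 260 aligned bases and those of *Ly6c1* and *Ly6g* at 216 of 250. Aligned bases leave out gaps. With gaps counted, the identical bases were 62.9% and 61.7% of the alignment columns. For *Ly6c1* and *Ly6g5b*, on another chromosome, they were 122 of 169 aligned bases and 28.3% of the columns. An interferon-type motif, GAAANNGAA, and a STAT-type motif, TTCNNNGAA, were searched on both strands. Neither occurred in the windows of *Ly6c1*, *Ly6c2*, *Ly6g* or *Ly6g5b*, while 8.56% and 8.3% of 32851 promoter windows of that length held one. The table holds no window for *Ly6a*, *Ly6d* or *Ly6e*.

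The WT library held 3749714 UMIs in 1278 barcodes and the twi library 4807539 UMIs in 1220, of which 1271 and 1207 had at most 15% mitochondrial UMIs and were kept. The libraries shared 0 barcode sequences. Cell classes were set by UMIs of fixed markers, none of them a Ly6 gene. Effector-like CD8+ T cells numbered 51 in WT and 375 in twi, naive-like CD8+ T cells 52 and 48, CD4+ T cells 46 and 69, NK cells 78 and 75, B cells 550 and 165, neutrophils 223 and 62, monocytes 40 and 52 and C1q+ phagocytes 19 and 15. T cells with no *Cd4*, *Cd8a* or *Cd8b1* transcript, or with both kinds, are called other T cells and numbered 133 and 273. They can include gamma-delta T cells, which were not set apart here. Markers left out of the gates were measured in each class. The neutrophil genes *Csf3r*, *Retnlg*, *Cxcr2* and *Mmp9* together had 29199 CPM (UMIs per 1000000 UMIs of the class) in WT and 27142 CPM in twi neutrophils and at most 372 CPM in any other named class of either library. Other lists were shared between classes. The CD8 effector list (*Id2*, *S100a4*, *Ctsw*, *Klrd1*) had 1415 and 2343 CPM in effector-like CD8+ T cells but 3835 and 4427 CPM in NK cells, and the monocyte list (*Ccr2*, *Lyz2*, *Cd14*, *Ifitm6*) had 21708 and 38638 CPM in monocytes and 18877 and 20399 CPM in neutrophils. The CD8 naive list had 1627 and 1698 CPM in naive-like CD8+ T cells and 1890 and 998 CPM in CD4+ T cells. Of 8 genes of endothelial cells, which are also known to express *Ly6a* and *Ly6c1*, 5 were at 0 in all cells of both libraries, and the sum was 11 UMIs in WT and 6 in twi.

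Transcripts of the Y chromosome (*Ddx3y*, *Eif2s3y*, *Kdm5d*, *Uty*) and *Xist*, which is made from the inactive X, set the pools apart. In WT, 487 cells had a Y transcript and 0 had *Xist*. In twi, 207 cells had a Y transcript without *Xist*, 548 had *Xist* without a Y transcript, 26 had both and 426 neither. No cell of the WT pool thus carried *Xist*, while the twi pool held cells of both kinds, with *Xist* and no Y in 60.8% of effector-like CD8+ T cells (228 cells) and Y without *Xist* in 12.3% (46 cells). Cells of the different sexes come from different animals, so sex and animal cannot be told apart. Values within these cells are given below beside the ratios that they turned. Cells with a Y transcript also differed from cells with neither in depth and state. WT monocytes had a median of 8599 UMIs with a Y transcript and 4545 with neither. The interferon-stimulated genes named below summed to 3312 and 10562.5 CPM in them, and to 2880 and 1651 CPM in WT effector-like CD8+ T cells. Contrasts among Y cells are not matched for these.

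**Figure D1:**
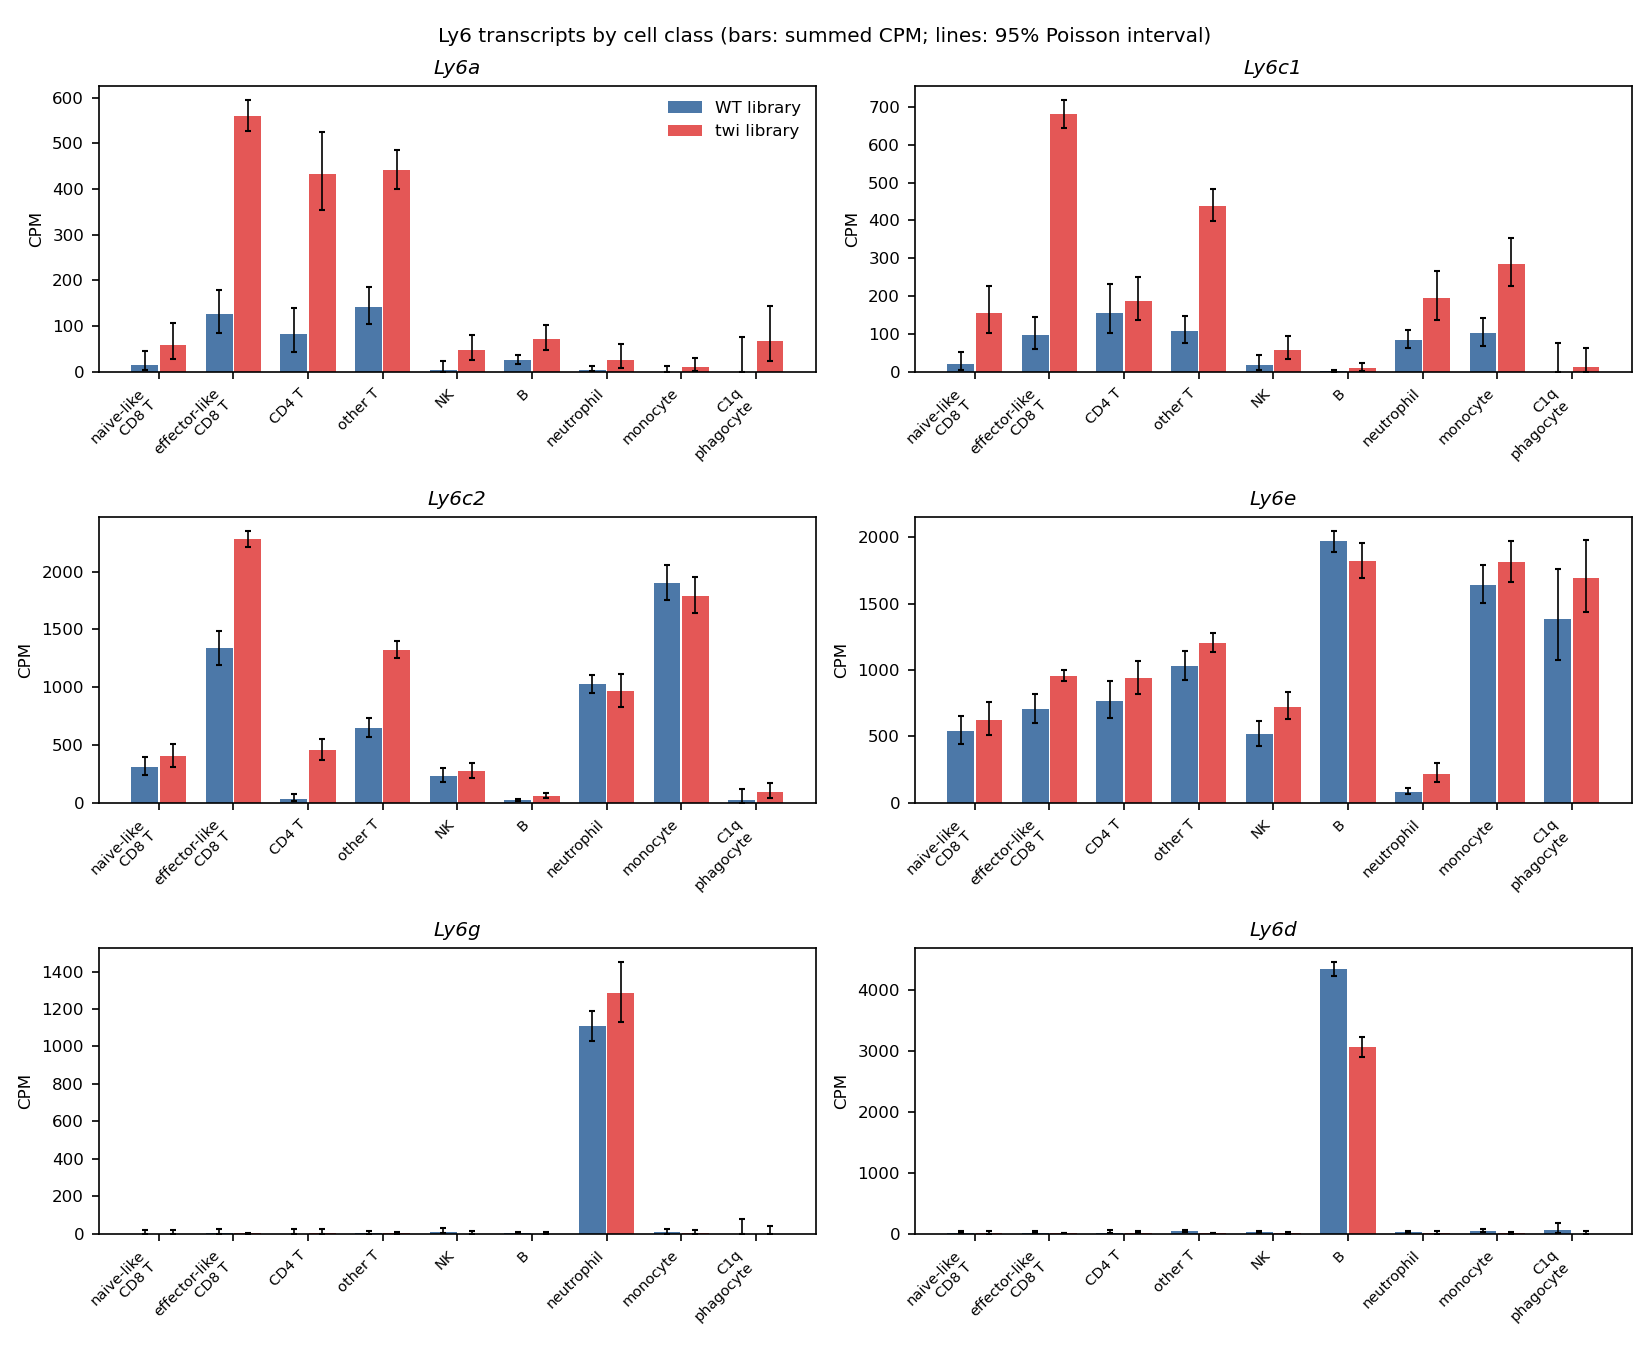
Summed level of 6 Ly6 genes in 9 cell classes of the WT (blue) and twi (red) libraries, in CPM on a linear axis, 1 panel per gene with its own scale; lines are 95% Poisson intervals and there is 1 library per genotype. *Ly6g* stands almost alone in neutrophils (1107 and 1284 CPM) and *Ly6d* in B cells (4351 and 3060 CPM), while *Ly6a* and *Ly6c1* are tallest in twi T cells.

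*Ly6a*, which encodes Sca-1, was low in WT and higher in twi in each T cell class. In effector-like CD8+ T cells it had 30 UMIs in WT, or 125 CPM (95% interval 84.5 to 179), and 1035 UMIs in twi, or 560 CPM (95% interval 527 to 596). Its CPM ratio (twi to WT) was 4.48 (95% interval 3.12 to 6.67). It was seen in 17.6% of WT and 60.5% of twi cells, or in 6.0% and 33.4% when every cell was thinned to 1000 UMIs. A single WT cell carried 15 of the 30 UMIs. Without the cell richest in *Ly6a* in each library the ratio was 7.77 (95% interval 4.69 to 13.9). Among cells with a Y transcript and no *Xist* it was 2.74 (95% interval 1.69 to 4.62), from 145 CPM in 26 WT cells and 398 CPM in 46 twi cells. The WT cell with 15 UMIs was among these 26 and held most of their UMIs, so this ratio leans on that cell. The twi cells that had *Xist* and no Y transcript had 602 CPM, so both groups of twi cells were above the WT cells.

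In CD4+ T cells *Ly6a* had 13 UMIs in WT (81.4 CPM) and 104 in twi (433 CPM), a ratio of 5.32 (95% interval 2.98 to 10.3). One twi cell held 20.2% of the UMIs. The cells with *Ly6a* made up 17.4% of WT and 55.1% of twi CD4+ T cells. Here the order of the sexes within twi was the opposite, 722 CPM in 13 cells with a Y transcript and 287 CPM in 21 cells with *Xist*. Other T cells had 141 CPM in WT and 442 CPM in twi, a ratio of 3.14 (95% interval 2.34 to 4.28). Naive-like CD8+ T cells had 3 and 10 UMIs (15.5 and 57.9 CPM), which gave a ratio of 3.74 with an interval from 0.963 to 21.2 that holds 1.

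Within each library *Ly6a* was higher in effector-like than in naive-like CD8+ T cells, 8.08-fold (95% interval 2.51 to 41.4) in WT and 9.67-fold (95% interval 5.24 to 20.2) in twi. NK cells, cytotoxic lymphocytes without CD3, had 1 UMI in WT and 13 in twi. B cells had 31 UMIs in WT and 30 in twi, or 25.6 and 70.9 CPM, but among cells with a Y transcript and no *Xist* there were 13 and 2 UMIs and the ratio turned to 0.748. The B cells differed by stage. Those without early transcripts (*Vpreb1*, *Vpreb3*, *Igll1*, *Rag1* or *Dntt*) had 141 CPM in WT and 149 CPM in twi, a ratio of 1.06 (95% interval 0.421 to 2.56), whereas early B cells had 15.3 and 56.2 CPM. Monocytes had 0 UMIs in 40 WT cells, which allows up to 9.47 CPM, and 3 UMIs in 52 twi cells.

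*Ly6c1*, one of the genes behind the Ly-6C antigen, had the largest ratio in effector-like CD8+ T cells among the members present in both libraries. It had 23 UMIs in 51 WT cells, or 96 CPM (95% interval 60.9 to 144), and 1258 UMIs in 375 twi cells, or 681 CPM (95% interval 644 to 720), a ratio of 7.09 (95% interval 4.71 to 11.2). At least 1 UMI was found in 15.7% of WT and 58.1% of twi cells (8.0% and 32.9% at 1000 UMIs). A single WT cell held 12 of the 23 UMIs, and without the richest cell of each library the ratio was 14.1 (95% interval 7.88 to 28.4).

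This difference ran with the sex transcripts of the twi pool. Twi effector-like CD8+ T cells with *Xist* and no Y transcript had 1091 *Ly6c1* UMIs in 228 cells, or 903 CPM (95% interval 850 to 958). Twi cells with a Y transcript and no *Xist* had 7 UMIs in 46 cells, or 34.8 CPM (95% interval 14 to 71.7), with no more than 1 UMI in any cell. The former level was 26-fold the latter (95% interval 12.6 to 64.7). WT cells with a Y transcript had 18 UMIs in 26 cells, or 119 CPM, so that among cells with a Y transcript and no *Xist* the ratio of twi over WT turned to 0.293 (95% interval 0.104 to 0.736). The WT cell with 12 UMIs was among these 26, so this ratio leans on 1 cell, which its interval does not cover. The ratio of Y cells without that cell was not computed. At 1000 UMIs per cell, *Ly6c1* was seen in 44.1% of the *Xist* cells, 6.67% of the twi Y cells and 11.5% of the WT Y cells.

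The split was examined after the values had been seen and is a description. Of 6051 genes with at least 20 UMIs in these 274 twi cells, *Xist* and the Y genes aside, *Ly6c1* had the highest log2 ratio of *Xist* over Y cells, 4.60 with 0.5 UMIs added, where the median of all was -0.083. At least a 2-fold higher level in the *Xist* cells was seen for 8.81% of these genes. The interferon-stimulated genes named below summed to 5359 CPM in the *Xist* cells and 4702 CPM in the Y cells, and the median depth was 4854 and 3634.5 UMIs.

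The same order was seen in the other cells that carry *Ly6c1*, with CD4+ T cells as the exception. Monocytes had 32 UMIs in WT (101 CPM, 24 of them in 1 cell) and 83 in twi (286 CPM), a ratio of 2.83 (95% interval 1.86 to 4.40). Within twi, 18 monocytes with *Xist* had 719 CPM and 11 with a Y transcript had 34.3 CPM, while 23 WT monocytes with a Y transcript had 125 CPM. The WT cell with 24 UMIs was among these 23. Other T cells had 108 CPM in WT and 439 CPM in twi, and within twi 554 CPM in 139 *Xist* cells and 83.0 CPM in 47 Y cells, beside 125 CPM in 48 WT Y cells. Neutrophils had 83.7 and 194 CPM, a ratio of 2.31 (95% interval 1.49 to 3.56), but only 7 twi neutrophils had *Xist* alone and 5 a Y transcript alone, with 10 and 1 UMIs. In naive-like CD8+ T cells, with 4 UMIs in WT and 27 in twi, 16 *Xist* cells had 12 UMIs and 8 Y cells had 0. NK cells had 4 and 16 UMIs, with 8 UMIs in 31 *Xist* cells and 0 in 22 Y cells of twi.

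In CD4+ T cells *Ly6c1* had 25 UMIs in WT (156 CPM) and 45 in twi (187 CPM), a ratio of 1.20 (95% interval 0.718 to 2.04). The 21 twi CD4+ T cells with *Xist* had 248 CPM and the 13 with a Y transcript 206 CPM, a ratio of 1.20 (95% interval 0.554 to 2.72). *Ly6c1* was seen in 28.3% of WT and 29% of twi CD4+ T cells. In B cells it had 1 UMI in 550 WT cells and 4 in 165 twi cells.

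**Figure D2:**
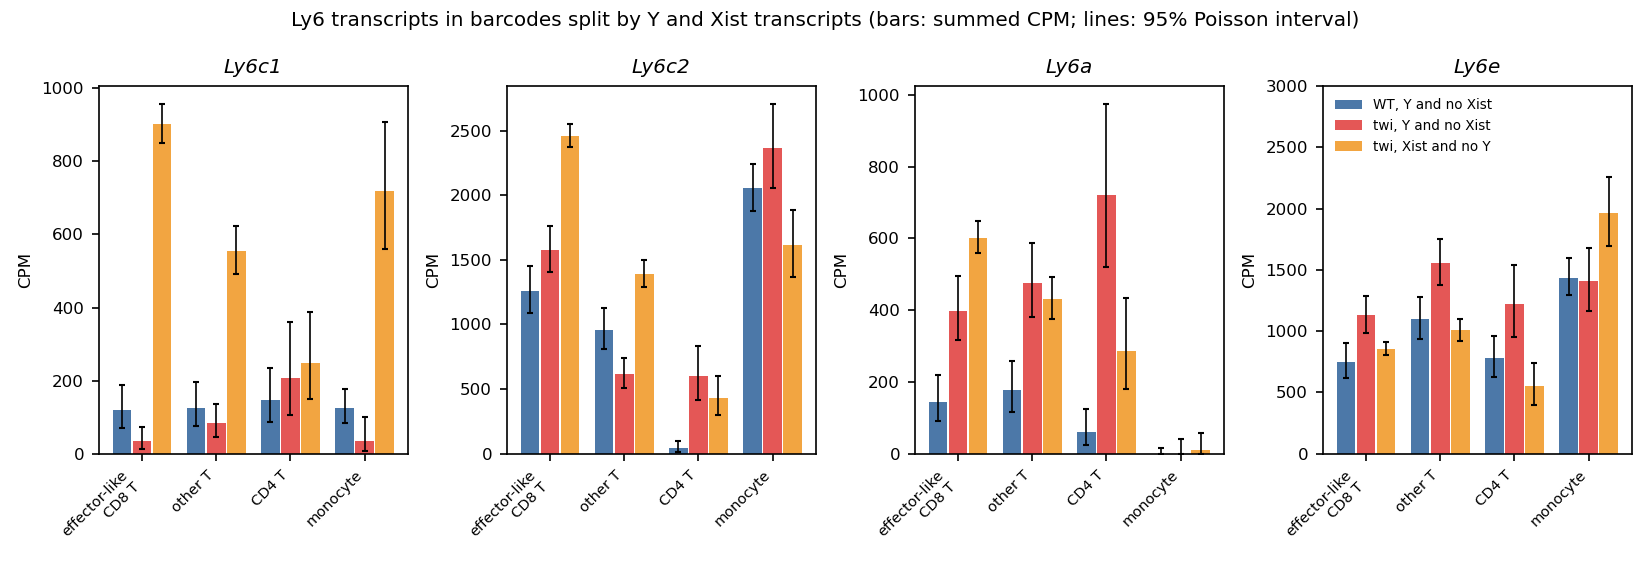
Level of *Ly6c1*, *Ly6c2*, *Ly6a* and *Ly6e* in CPM (linear axes) in WT cells with a Y transcript and no *Xist* (blue), twi cells with a Y transcript and no *Xist* (red) and twi cells with *Xist* and no Y transcript (orange), in 4 cell classes; lines are 95% Poisson intervals. *Ly6c1* in effector-like CD8+ T cells stands at 903 CPM in the *Xist* cells against 34.8 CPM in the twi and 119 CPM in the WT Y cells, whereas *Ly6a* in these cells is above WT in both twi groups (398 and 602 CPM against 145 CPM). Of the UMIs behind these WT values, 12 of 18 for *Ly6c1* and 15 of 22 for *Ly6a* are in 1 cell.

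*Ly6c2*, the other Ly-6C gene, was abundant in both libraries. In effector-like CD8+ T cells it had 320 UMIs in WT, or 1336 CPM (95% interval 1193 to 1490), and 4221 UMIs in twi, or 2285 CPM (95% interval 2217 to 2355), a ratio of 1.71 (95% interval 1.53 to 1.92). The median cell held 4 UMIs in WT and 9 in twi, and 82.4% and 86.4% of cells had at least 1. Among cells with a Y transcript and no *Xist* the ratio was 1.25 (95% interval 1.04 to 1.51), from 1259 and 1576 CPM, and the twi *Xist* cells had 2460 CPM. Effector-like cells were above naive-like CD8+ T cells 4.31-fold (95% interval 3.26 to 5.78) in WT and 5.72-fold (95% interval 4.51 to 7.36) in twi.

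The largest difference in *Ly6c2* was in CD4+ T cells, whose state also differed between the libraries, as given below. WT had 5 UMIs, 4 of them in 1 cell, in 46 cells (31.3 CPM) and twi had 109 UMIs in 69 cells (453 CPM), a ratio of 14.5 (95% interval 6.02 to 45.5). Cells with a UMI made up 4.35% of WT and 36.2% of twi. Both twi groups were above WT: 601 CPM in cells with a Y transcript, 431 CPM in cells with *Xist* and 43.3 CPM in WT cells with a Y transcript. Other T cells had 646 and 1326 CPM, a ratio of 2.05 (95% interval 1.78 to 2.37), which turned to 0.640 (95% interval 0.495 to 0.824) among cells with a Y transcript and no *Xist*.

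In monocytes and neutrophils the interval of the *Ly6c2* ratio held 1. Monocytes, in which high Ly-6C marks the inflammatory subset, had 1903 CPM in WT and 1790 CPM in twi, a ratio of 0.941 (95% interval 0.835 to 1.06). Among monocytes with a Y transcript and no *Xist* it was 1.15 (95% interval 0.975 to 1.36), and within twi the *Xist* monocytes had 0.682 of the level of the Y monocytes (95% interval 0.551 to 0.843). Neutrophils had 1025 and 963 CPM, a ratio of 0.940 (95% interval 0.796 to 1.11), which was 1.02 (95% interval 0.582 to 1.67) among Y cells, 5 of them in twi. Cells varied widely within the class: monocytes held a median of 4.5 and 5.5 UMIs and up to 105 and 74. C1q+ phagocytes, the class of microglia and related macrophages, had 1 UMI in 19 WT cells and 8 in 15 twi cells. NK cells had 233 and 273 CPM, a ratio of 1.17 (95% interval 0.815 to 1.69), but among cells with a Y transcript and no *Xist* there were 22 UMIs in 32 WT cells and 7 in 22 twi cells, and the ratio was 0.377 (95% interval 0.136 to 0.915).

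The balance between these copies therefore differed. Of all UMIs of *Ly6c1* and *Ly6c2* in effector-like CD8+ T cells, *Ly6c1* gave 6.71% in WT (95% interval 4.30 to 9.89%, 343 UMIs) and 23% in twi (95% interval 21.9 to 24.1%, 5479 UMIs). In monocytes it gave 5.04% (95% interval 3.47 to 7.04%) and 13.8% (95% interval 11.1 to 16.8%). Among cells with a Y transcript and no *Xist* the order turned. In effector-like CD8+ T cells *Ly6c1* then gave 8.61% in WT (95% interval 5.18 to 13.3%) and 2.16% in twi (95% interval 0.873 to 4.40%), and 26.9% in the twi *Xist* cells. In monocytes it gave 5.74%, 1.43% and 30.8% in the same order. Among the WT Y cells, 1 cell held 12 of the 18 *Ly6c1* UMIs in effector-like CD8+ T cells and 24 of the 31 in monocytes. The turn between WT and twi Y cells therefore leans on 1 WT cell in each class. In CD4+ T cells the twi share was the lower one also before this split, 83.3% in WT (95% interval 65.3 to 94.4%, 30 UMIs) and 29.2% in twi (95% interval 22.2 to 37.1%, 154 UMIs), and Y cells had 77.3% and 25.5%. Reads that the copies share cannot be placed by sequence, and their part in these shares was not tested.

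*Ly6e* was the most widespread member. Every monocyte of both libraries had a UMI of it, as did 82.4% and 92.3% of effector-like CD8+ T cells and, among B cells, 96.0% in WT and 97.0% in twi. B cells had 1970 CPM in WT and 1822 CPM in twi, a ratio of 0.925 (95% interval 0.852 to 1.00). Monocytes had 1641 and 1811 CPM, a ratio of 1.10 (95% interval 0.976 to 1.25) that was 0.979 (95% interval 0.791 to 1.20) among Y cells. In effector-like CD8+ T cells it had 169 UMIs in WT (705 CPM) and 1768 in twi (957 CPM), a ratio of 1.36 (95% interval 1.16 to 1.60). Within twi the order of the sexes was opposite to that of *Ly6c1*, with 1128 CPM in the Y cells and 855 CPM in the *Xist* cells. WT effector-like CD8+ T cells with a Y transcript had 751 CPM, below both twi groups.

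The ratio of *Ly6e* was 1.40 (95% interval 1.11 to 1.77) in NK cells, 1.22 (95% interval 0.976 to 1.53) in CD4+ T cells and 1.17 (95% interval 1.04 to 1.32) in other T cells. Among cells with a Y transcript and no *Xist* in both libraries, it was 2.11 in NK cells (95% interval 1.47 to 3.05). It was then 1.57 in CD4+ T cells (95% interval 1.13 to 2.16) and 1.42 in other T cells (95% interval 1.16 to 1.72). Naive-like CD8+ T cells, 8 of them in twi, stood at 2.07 (95% interval 1.299 to 3.27). B cells stood at 0.916 (95% interval 0.774 to 1.08). All WT cells were also set against the twi cells with *Xist* and no Y transcript. The ratio then turned to 0.802 in NK cells (95% interval 0.566 to 1.12), 0.712 in CD4+ T cells (95% interval 0.489 to 1.02) and 0.978 in other T cells. As no WT cell had *Xist*, that contrast does not match the sexes. Neutrophils held the least, 82.2 CPM in WT and 219 CPM in twi, from 54 and 43 UMIs, a ratio of 2.67 (95% interval 1.74 to 4.05). One twi neutrophil had 13 of the 43, and among the 5 twi neutrophils with a Y transcript alone there was 1 UMI, so that the ratio turned to 0.877 there. Neutrophils with the granule transcripts *Camp*, *Ltf* or *Ngp*, a sign of an earlier stage, had 52.9 and 81 CPM and the others 204 and 529 CPM. Within WT the first level was 0.259 of the second (95% interval 0.147 to 0.460), and within twi 0.153 (95% interval 0.0696 to 0.312).

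*Ly6g*, the antigen used to identify neutrophils, was found in them almost alone. Neutrophils had 727 UMIs in WT (1107 CPM) and 252 in twi (1284 CPM), and each other class of a single type had at most 4 UMIs. Over all cells the level was lower in twi, 203 and 61.2 CPM, a ratio of 0.301 (95% interval 0.263 to 0.345), and neutrophils made up 17.5% of WT and 5.14% of twi cells. In neutrophils themselves the ratio was 1.16 (95% interval 1.00 to 1.34), and it had no stable direction: 1 twi cell held 14.3% of the UMIs, and at 1000 UMIs per cell the ratio was 0.749 (95% interval 0.539 to 1.02). Among Y cells, 5 of them in twi, it was 0.840 (95% interval 0.463 to 1.41). By stage it was 1.37 (95% interval 1.17 to 1.59) with granule transcripts and 0.678 (95% interval 0.426 to 1.05) without. *Ly6g* was higher in neutrophils with granule transcripts than in the others, 1.77-fold in WT (95% interval 1.41 to 2.24; 1209 and 683 CPM) and 3.56-fold in twi (95% interval 2.4 to 5.49; 1650 and 463 CPM). *Ly6c2* had the same order, 1.58-fold (95% interval 1.26 to 2) and 1.66-fold (95% interval 1.16 to 2.42), and *Ly6e* the reverse.

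*Ly6d*, a marker of cells that enter the B lineage, was found in B cells. They had 5260 UMIs in WT, or 4351 CPM (95% interval 4234 to 4471), and 1295 in twi, or 3060 CPM (95% interval 2896 to 3232), a ratio of 0.703 (95% interval 0.661 to 0.748). Of the B cells, 91.6% in WT and 85.5% in twi had a UMI of it (87.2% and 78% at 1000 UMIs). The lower level held in both stages, 4453 and 3188 CPM in early B cells and 3215 and 2384 CPM in the others. Early B cells were above the others 1.39-fold (95% interval 1.24 to 1.56) in WT and 1.34-fold (95% interval 1.13 to 1.59) in twi. Among cells with a Y transcript and no *Xist* the ratio was 0.789 (95% interval 0.698 to 0.890). Within twi, 52 B cells with *Xist* had 1952 CPM, below the 36 with a Y transcript at 2986 CPM. Another 75 twi B cells had neither transcript and are in neither group.

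In the named classes other than B cells *Ly6d* had at most 16 UMIs. Barcodes that met no gate had 26 UMIs in WT and 1 in twi, and mixed barcodes had 35 and 63. Effector-like CD8+ T cells, which should lack it, had a UMI in 5.88% of WT and 2.67% of twi cells at median depths of 4079 and 4262 UMIs. Shares of this size were read as background for *Ly6d*, and other members can have another background. By the same measure *Ly6g* was seen in 1.96% and 1.07% of these cells, and *Ly6a* in 1.35% of WT and 8.06% of twi neutrophils.

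*Ly6g5b*, a family member in the major histocompatibility complex on chromosome 17, was rare. It had 29 UMIs in 23 WT cells and 112 UMIs in 71 twi cells. Most were in other T cells, 12 UMIs in WT (33.1 CPM) and 72 in twi (75 CPM), a ratio of 2.26 (95% interval 1.22 to 4.58). Effector-like CD8+ T cells had 0 UMIs in 51 WT cells and 27 in 375 twi cells. Against the limit of 3 UMIs in WT the twi level was at least 1.17-fold higher, but the lower end of the 95% interval of the ratio was 0.886, so that equal levels lie within counting error. Neutrophils had 12 and 3 UMIs, and B cells, monocytes and C1q+ phagocytes had 0 in both libraries.

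**Figure D3:**
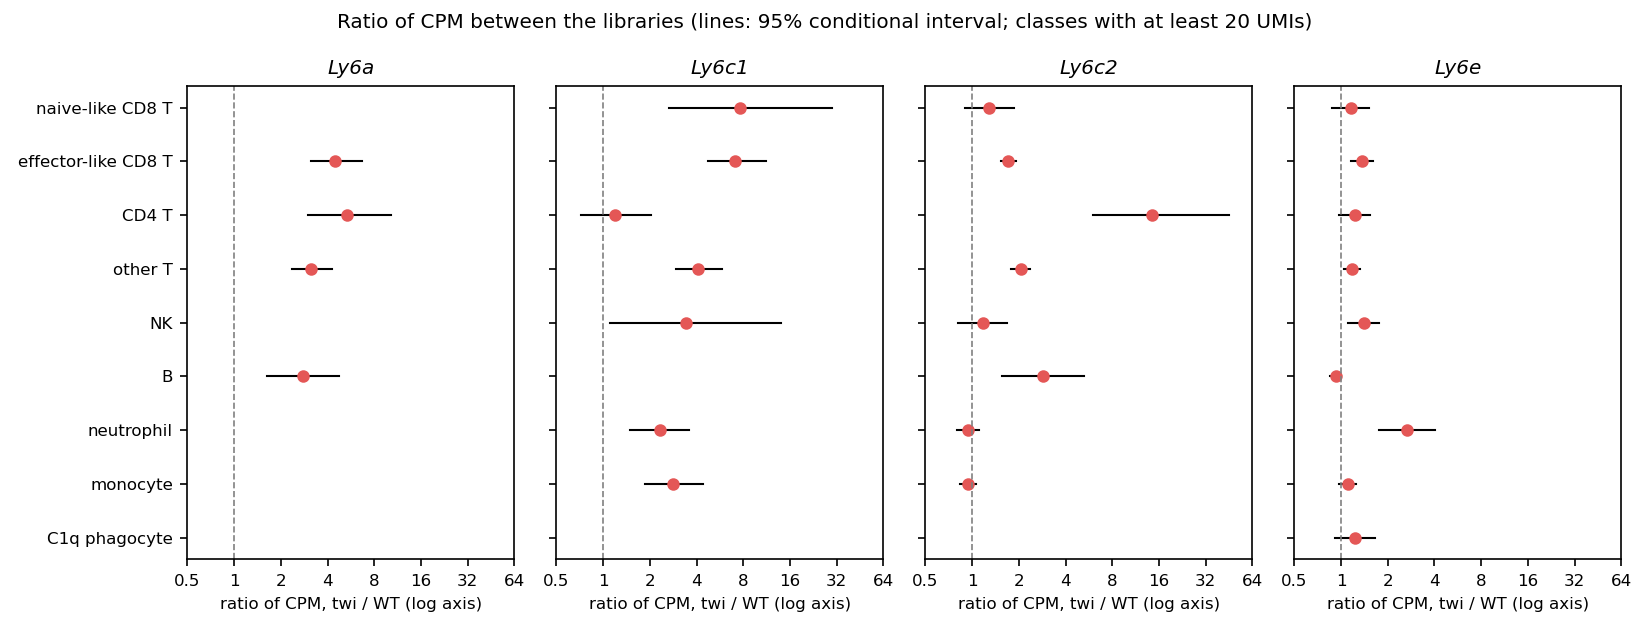
Ratio of CPM, twi over WT, of 4 Ly6 genes in each cell class with at least 20 UMIs over both libraries and at least 1 in WT, on a log axis; points are ratios, lines 95% conditional intervals and the dashed line marks equal levels. *Ly6c2* stands at 14.5 in CD4+ T cells and at 0.941 in monocytes, and *Ly6c1* at 7.09 in effector-like CD8+ T cells and 1.20 in CD4+ T cells.

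Read against all genes, the members stood as follows. In effector-like CD8+ T cells 5 of the 7 members had at least 20 UMIs over both libraries. *Ly6g5b* got there through its twi UMIs alone and has no WT level to set them against. Of the 4 others 2, *Ly6a* and *Ly6c1*, were at least 2-fold higher in twi, beside 12.9% of the 7021 genes with a WT UMI (14.4% of all 7142 genes, those at 0 in WT counted as higher). The median log2 ratio was 1.46 for these 4 members and 0.033 for the 7021 genes, and 0.77 with *Ly6g5b* added at its bound. In CD4+ T cells 2 of 4 members passed, *Ly6a* and *Ly6c2*, beside 4.8% of all genes. In naive-like CD8+ T cells 1 of 3 passed, *Ly6c1* (3.63% of all genes), in NK cells 1 of 3, *Ly6c1* (4.42%), and in monocytes 1 of 3, *Ly6c1* (5.08%). With 4 WT UMIs in naive-like CD8+ T cells and 4 in NK cells, *Ly6c1* reached the minimum of 20 UMIs there only through twi. The same held in CD4+ T cells for *Ly6a* (13 WT UMIs) and *Ly6c2* (5 WT UMIs). The counts of members in these classes are therefore not support for a rise. In neutrophils 2 of 4 passed, *Ly6c1* and *Ly6e* (4.62%). In B cells 2 of 4 passed, *Ly6a* and *Ly6c2* (2.1%), both rare there. The share of B cells carrying *Ly6a* was 4.36% for WT and 10.9% for twi, and for *Ly6c2* 4.18% and 12.1%. *Ly6a* in neutrophils also rose, from 1.35% to 8.06%, so shares as low as these can hold background. By level *Ly6a* stood higher in B cells, 25.6 and 70.9 CPM, than in neutrophils, 4.57 and 25.5 CPM. In B cells without early transcripts it had 141 and 149 CPM and was seen in 17.5% and 19.4% of cells. Whether the ratios of these members in B cells exceed background was not tested. Among cells with a Y transcript and no *Xist*, the ratio of *Ly6c1* was 0.293 in effector-like CD8+ T cells and 0.274 (95% interval 0.0536 to 0.879) in monocytes. Both ratios lean on 1 WT cell, which held 12 of 18 WT UMIs in effector-like CD8+ T cells and 24 of 31 in monocytes. For neutrophils, NK cells and naive-like CD8+ T cells the counts gave no direction, with 15 WT and 1 twi UMIs in the first, 1 and 0 in the second and 0 in both libraries in the last. No member with at least 20 UMIs was lower in twi by that factor in any of these classes.

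The effector-like CD8+ T cells were not alike in state. The median sum of *Ccl5*, *Nkg7*, *Gzmb*, *Gzmk* and *Cxcr6* was 17 UMIs per cell in WT and 36 in twi. The naive genes *Igfbp4*, *Satb1*, *Tcf7* and *Dapl1*, not used in the gate, summed to 989 CPM in WT and 394 CPM in twi, and all 4 were present. *S100a8* and *S100a9*, neutrophil transcripts, had 935 and 299 CPM in these cells. CD4+ T cells also differed in state. The CD8 effector list had 494 CPM in WT and 1260 CPM in twi CD4+ T cells, and the naive list 1890 and 998 CPM. The part of these differences in the ratios of the Ly6 genes was not tested.

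Interferon-stimulated genes were followed beside the members because several Ly6 genes are known to answer to interferon. Of 32 such genes, all had at least 20 UMIs over both libraries in effector-like CD8+ T cells. Of these, 31 were higher and 1, *Oasl2*, lower in twi, and the median log2 ratio was 1.07. Of all 7142 genes 3819 were higher, with a median of 0.045. *Iigp1* and *Slfn5* had 0 WT UMIs and passed the minimum through their twi UMIs alone, and *Stat2*, *Oas1a* and *Irgm1* had 2 each. Their direction was thus set in part by the minimum. *Isg15* had a ratio of 2.19 (95% interval 1.64 to 3) and *Irgm1*, an interferon-inducible GTPase, of 8.50 from 2 WT UMIs. The sum of the list was 2429 CPM in WT and 5542 CPM in twi. In monocytes the median was 1.26 over 21 genes, all higher in twi, in NK cells 1.33 over 18, in neutrophils 1.04 over 12, in CD4+ T cells 0.78 over 16, in naive-like CD8+ T cells 0.54 over 9, and in B cells 0.075 over 20. *Ifit3* in monocytes and *Isg20* in NK cells had 0 WT UMIs. In naive-like CD8+ T cells 4 of the 9 genes were lower, and the list summed to 2344 CPM in WT and 2358 CPM in twi. In monocytes, *Ly6c2* and *Ly6e* had ratios of 0.941 and 1.10 beside that list, and *Ly6c1* had 2.83.

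Cells of a class were divided at the median share of UMIs that came from the list. In twi effector-like CD8+ T cells, *Ly6a* had 214 CPM in the 188 lower cells and 1020 CPM in the 187 upper cells, 4.75-fold higher (95% interval 4.10 to 5.54). *Ly6c1* was 1.89-fold higher in the upper cells (95% interval 1.68 to 2.11), *Ly6c2* 1.76-fold (95% interval 1.65 to 1.87) and *Ly6e* 1.70-fold (95% interval 1.54 to 1.87). The list itself had 2019 and 10221 CPM in these cells, and their median depth was 4706.5 and 3736 UMIs. The factor for *Ly6a* in WT was 0.856 (95% interval 0.376 to 1.88) in 51 cells, where 1 cell held 15 of its 30 UMIs. That for *Ly6c1* in WT was 2.93 (95% interval 1.14 to 8.43), where 1 cell held 12 of its 23 UMIs.

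In twi CD4+ T cells *Ly6a* was again higher in the upper cells, 193 and 691 CPM, 3.59-fold (95% interval 2.25 to 5.92), while *Ly6c1* was lower in them, 273 and 95 CPM, a factor of 0.348 (95% interval 0.159 to 0.704), and *Ly6c2* stood at 1.18 (95% interval 0.796 to 1.75). In other T cells of twi the factors were 2.13 for *Ly6a*, 2.62 for *Ly6c1*, 2.85 for *Ly6c2* and 1.44 for *Ly6e*. In other T cells of WT *Ly6a* had 45.8 and 229 CPM, a factor of 4.99 (95% interval 2.32 to 12.3). Elsewhere some factors were below 1. In WT monocytes *Ly6c2* stood at 0.518 (95% interval 0.412 to 0.646) and *Ly6c1*, with 24 of its 32 UMIs in 1 cell, at 0.0893. The lower WT monocytes were deeper, with a median of 9435 UMIs against 4645.5 in the upper ones. In twi monocytes *Ly6c2* stood at 0.918 (95% interval 0.770 to 1.09) and *Ly6c1* at 0.913 (95% interval 0.578 to 1.44). In WT naive-like CD8+ T cells *Ly6c2* stood at 0.529 (95% interval 0.298 to 0.918); in twi the factor was above 1 (95% interval 1.25 to 3.6). In twi neutrophils *Ly6g* stood at 0.551 (95% interval 0.416 to 0.725), where WT had 0.989. *Ly6e* was also higher in the upper WT CD4+ T cells, 1.88-fold (95% interval 1.27 to 2.81), and in the upper B cells, 1.34-fold in WT (95% interval 1.23 to 1.45) and 1.46-fold in twi (95% interval 1.26 to 1.69). In monocytes its factor was 1.53 in WT (95% interval 1.27 to 1.84) and 1.41 in twi (95% interval 1.18 to 1.69). In neutrophils it was 2.88 in WT (95% interval 1.60 to 5.32) and 3.30 in twi (95% interval 1.65 to 7.05), where 1 cell held 13 of its 43 UMIs. *Ly6d* was also higher in the upper B cells, 1.44-fold in WT (95% interval 1.36 to 1.52) and 1.56-fold in twi (95% interval 1.40 to 1.75).

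**Figure D4:**
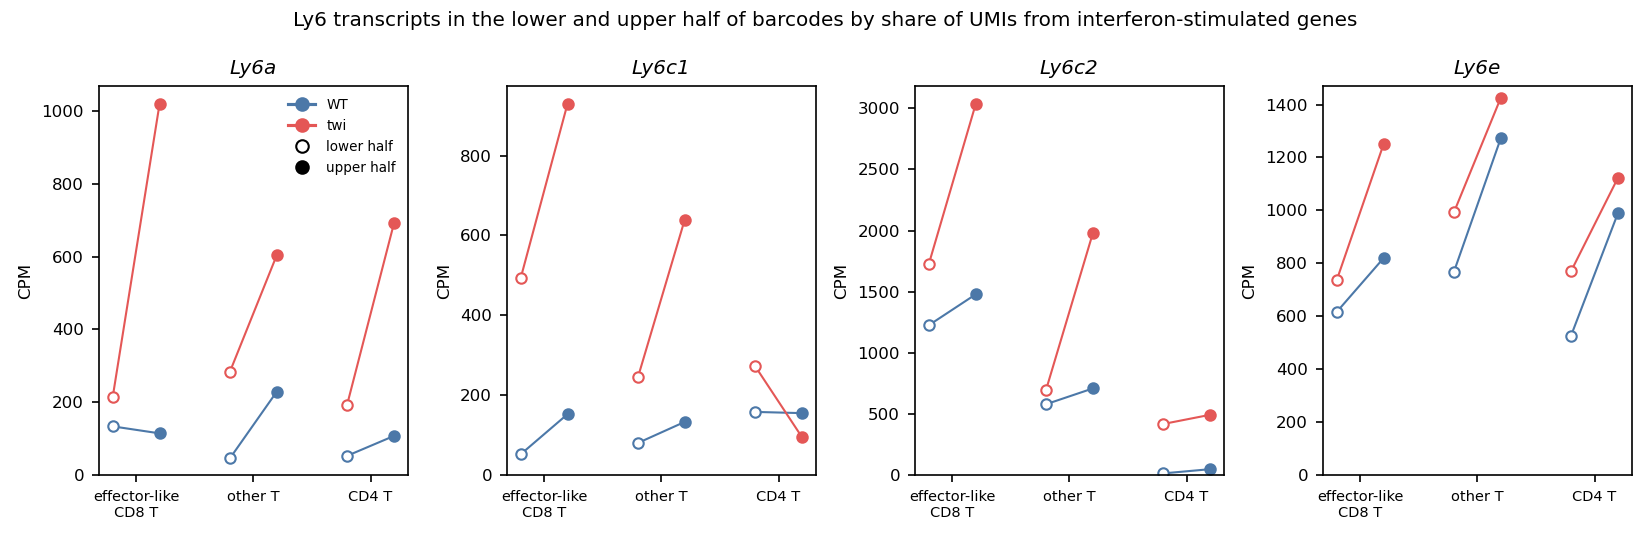
Level of *Ly6a*, *Ly6c1*, *Ly6c2* and *Ly6e* in CPM (linear axes) in cells of the lower (open points) and upper (filled points) part of a class, divided at the median share of UMIs from 32 interferon-stimulated genes, in WT (blue) and twi (red), for 3 T cell classes; no intervals are drawn. *Ly6a* goes from 214 to 1020 CPM in twi effector-like CD8+ T cells, and *Ly6c1* from 273 to 95 CPM in twi CD4+ T cells.

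Across the 371 twi effector-like CD8+ T cells of at least 1000 UMIs, each thinned to that number, the Pearson correlation with the list was 0.45 for *Ly6a*, 0.31 for *Ly6e*, 0.23 for *Ly6c2* and 0.095 for *Ly6c1*. It was 0.44 for *Ly6a* in 68 twi CD4+ T cells, where *Ly6c1* had -0.14. The order differed elsewhere. In 50 WT effector-like CD8+ T cells it was 0.56 for *Ly6c1*, 0.39 for *Ly6e*, 0.30 for *Ly6c2* and -0.026 for *Ly6a*. After thinning these held only 9 UMIs of *Ly6c1* and 5 of *Ly6a*. In 269 other T cells of twi it was 0.39 for *Ly6c2*, 0.34 for *Ly6a*, 0.28 for *Ly6c1* and 0.20 for *Ly6e*. The points of a library are cells of the same pool, counts were sparse, and the values are given as a description.

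Several members were seen together in a larger share of twi than of WT effector-like CD8+ T cells. At 1000 UMIs per cell, at least 1 of *Ly6a*, *Ly6c1*, *Ly6c2* and *Ly6e* was missing from each of the 50 WT effector-like CD8+ T cells, while 8.09% of the twi cells held all 4 and 25.3% held 3. Taken singly, *Ly6a* was seen in 6.0% of these WT and 33.4% of the twi cells, and *Ly6c1* in 8.0% and 32.9%. With such low single shares, 50 WT cells cannot show whether the 4 occur together. The twi share of *Ly6c1* was higher in *Xist* than in Y cells, as given above. None of the 4 was seen in 18% of WT and 8.09% of twi cells. In twi effector-like CD8+ T cells *Ly6a* was seen in 41% of the cells with *Ly6c1* and in 29.7% of those without. In twi CD4+ T cells the order was the reverse, 8.33% and 39.3%, from 12 thinned cells with *Ly6c1*.

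**Figure D5:**
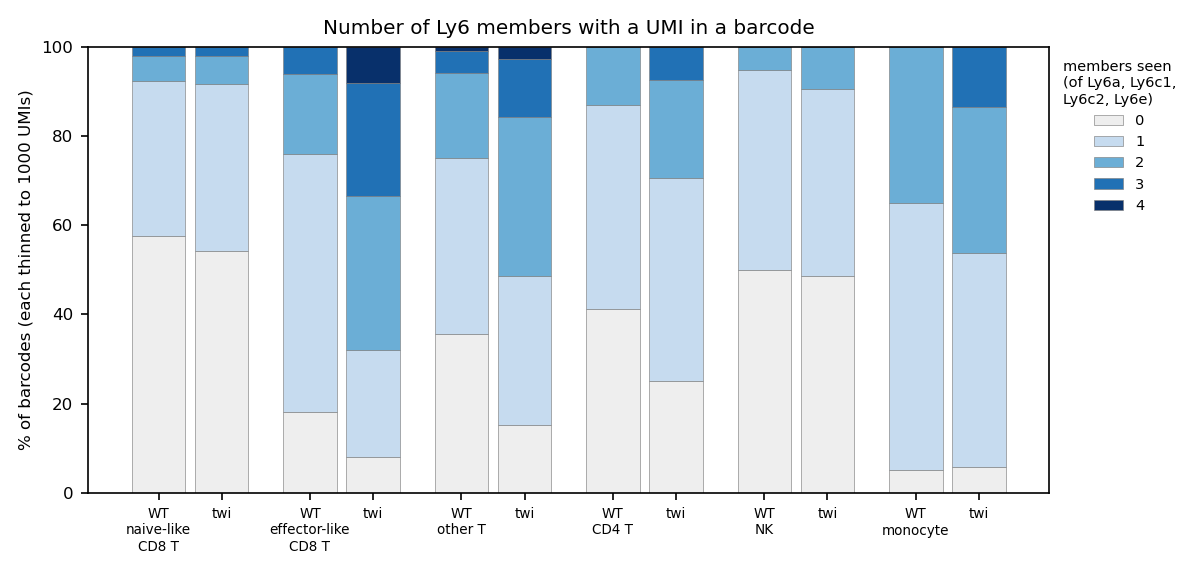
Share of cells (percent, linear axis) in which 0 to 4 of *Ly6a*, *Ly6c1*, *Ly6c2* and *Ly6e* were seen, each cell thinned to 1000 UMIs, in 6 classes of the WT and twi libraries. All 4 were seen in 8.09% of twi effector-like CD8+ T cells and in none of 50 from WT.

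Genes with the most similar pattern were sought over 16 points, 8 classes in each of the libraries, among 7194 genes by the Pearson correlation of log2(CPM + 10). *Ly6d* followed the B cell genes *Ebf1* (0.97), *Ms4a1* (0.97) and *Cd79b* (0.97), and *Ly6g* followed *Gm5483* (0.99), *Ceacam10* (0.99) and *Stfa2l1* (0.99). *Ly6a* was most like *Cxcr6* (0.85), a chemokine receptor that was part of the effector score, then *Ubash3a* (0.81) and *Usp24* (0.79). *Ly6c1* was most like *Slfn1* (0.86), and *Hopx* (0.81) was also among its nearest. *Ly6c2* was most like *Pstpip1* (0.83), *Zyx* (0.79) and *Gpi1* (0.78), and *Ly6e* like *Prdx2* (0.94), *Psmb5* (0.92) and *Ube2v2* (0.91). Some of these genes set the classes, and the points come from the same pair of libraries.

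The rest of the family was sparse in these cells. Of 26 other LY6/uPAR genes in the files, *Plaur*, the urokinase receptor, was the main one, with 782 CPM in WT and 861 CPM in twi neutrophils, a ratio of 1.10 (95% interval 0.920 to 1.31), and 196 and 207 CPM in monocytes. *Lynx1*, which encodes a modulator of nicotinic receptors, had 141 and 82.7 CPM in B cells, a ratio of 0.588 (95% interval 0.397 to 0.850). *Ly6i* had 12 and 15 UMIs in monocytes and *Ly6k* 16 and 6 in B cells.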

How the data were processed

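The counts deposited by the authors are UMIs of each gene in each barcode, made with Cell Ranger 2.1.1 on mm10 according to the submitters' processing notes and not normalized. Barcodes with over 15% mitochondrial UMIs, still in the files, were left out. Classes were set by minimum UMIs of fixed markers. Barcodes that met several gates (23 in each library) were set aside, no doublet caller was run, and doublets may remain. Gamma-delta T cells could not be gated, as the T cell receptor genes of that gate were not among the gene rows, and fall among other T cells. UMIs were summed per class and library as CPM with exact Poisson intervals, shares with Clopper-Pearson intervals and ratios with exact conditional intervals (scipy 1.17.1, numpy 2.4.6, pandas 2.3.3). Thinning to 1000 UMIs left out 106 WT and 20 twi barcodes. On simulated counts the intervals held the true ratio for 97% of 200 changed genes among 7142 (effector-like CD8+ T cells). These counts were drawn from the Poisson model that the intervals assume, so this checks the calculation only. It does not cover UMIs clumped in single cells, as for *Ly6a* and *Ly6c1* in WT. Members, lists, motifs and tests were chosen with earlier results of these data known. The named genes are the members, the fixed markers and lists, and the 3 genes most like each of 6 members. One of these is not reported here. The split by *Xist* within twi was added after seeing the data. *Galc* had 4 WT and 8 twi UMIs, and a 3′ count does not check the mutation.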

Additional observations from a re-analysis of the deposited data

How the results depend on the processing

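With 1 library for each genotype, a replicate block could not be set up: No paired analysis was possible because neither genotype had a second library. Leaving out barcodes seen in both libraries was not run, as there were 0. For 33 ratios of twi over WT, 422 values were computed under other settings; 345 lay within the counting interval of the reported ratio, 53 outside it, and 24 turned a ratio whose interval had left out 1. Without the settings on *Xist* and Y transcripts these were 302, 21 and 3 of 326. Turns of ratios whose interval held 1 are counted with the others. The causes were not tested. Among cells with a Y transcript and no *Xist* in both libraries, the ratio of *Ly6c1* turned to 0.293 in effector-like CD8+ T cells, 0.664 in other T cells, 0.0 in NK cells, 0.877 in neutrophils and 0.274 in monocytes; *Ly6a* in B cells to 0.748, *Ly6c2* in other T cells to 0.640, and in neutrophils *Ly6e* to 0.877 and *Ly6g* to 0.840. With such twi cells against all WT cells (chosen after seeing the data), *Ly6c1* stood at 0.362, 0.771, 0.0, 0.814 and 0.339 in the same order and at 0.0 in naive-like CD8+ T cells, *Ly6a* in B cells at 0.746, *Ly6c2* in other T cells at 0.951, *Ly6e* and *Ly6g* in neutrophils at 0.829 and 0.923. Among the turned ratios of Y cells of both libraries, few intervals left out 1. They were those of *Ly6c1* in effector-like CD8+ T cells and monocytes and of *Ly6c2* in other T cells. The other turned values give no direction. Twi Y cells held 0 *Ly6c1* UMIs in NK and in naive-like CD8+ T cells and 1 in neutrophils. They held 1 *Ly6e* UMI in neutrophils and 2 *Ly6a* UMIs in B cells. With twi *Xist* cells against all WT cells (also chosen after seeing the data), *Ly6e* turned to 0.978 in other T and 0.802 in NK cells. Among Y cells of both libraries *Ly6e* did not turn in these classes and stood at 1.42 and 2.11. Of the values that moved without turning, only those of ratios picked as main ones are listed next. Others moved too, such as *Ly6e* in naive-like CD8+ T cells to 2.07 (Y cells only). Values that moved without turning were, in effector-like CD8+ T cells, *Ly6a* 2.74 (Y cells only), 7.77 (without its richest cell) and 7.91 (without the 5% deepest cells); *Ly6c1* 4.01 (thinned) and 14.1 (without its richest cell); *Ly6c2* 1.96 (mean over cells), 2.06 (thinned), 1.25 (Y cells only) and 1.18 (twi Y cells against all WT); and *Ly6e* 2.03 (thinned) and 1.60 (twi Y cells against all WT). In CD4+ T cells *Ly6a* moved to 11.2 (thinned) and 11.9 (Y cells only) and *Ly6c2* to 58.9 without its richest cell. In monocytes *Ly6c1* moved to 5.83 (mean over cells), 5.0 (thinned), 9.04 (without its richest cell) and 7.12 (twi *Xist* cells). In B cells *Ly6d* moved to 0.761 (mixed barcodes kept), 0.789 (Y cells only) and 0.448 (twi *Xist* cells). *Ly6g* in neutrophils also turned to 0.869 as a mean over cells, 0.749 when thinned and 0.940 without the 5% deepest cells. Counts were a limit in WT, where 51 effector-like CD8+ T cells held 30 UMIs of *Ly6a* and 23 of *Ly6c1*. The richest cell held 15 and 12 of these and had a Y transcript in both cases. In WT monocytes 24 of the 32 *Ly6c1* UMIs were in 1 cell, also with a Y transcript. The turns of *Ly6c1* among Y cells of effector-like CD8+ T cells and monocytes lean on those cells.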
